A study of Rattus norvegicus with 8 samples.

Results

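The uptake of cholesterol from lipoproteins and the sensing of sterols were followed through 9 genes in cultured fetal rat testes, and 8 of these genes had a probe on the array. The members were all probes whose gene name on the array was Scarb1, Apoe, Apoc1, Lrpap1, Npc1, Abca1, Insig1, Insig2 or Srebf1. They came to 8 of the 35581 gene names and 16 of the 41012 probes on the array. No probe carried the name Npc1, which was not analysed here. Where a gene had several probes, they are called A, B, C and D from the brightest to the dimmest.

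Steroid-producing cells of the testis need cholesterol, which they take up from lipoproteins or make themselves. SR-B1, the product of Scarb1, takes cholesteryl esters from lipoprotein particles at the cell surface, apolipoproteins such as those of Apoe and Apoc1 coat these particles, and the transporter of Abca1 exports cholesterol. Inside the cell, the membrane proteins of Insig1 and Insig2 hold back the sterol regulatory element-binding proteins when sterols are plentiful. Srebf1 encodes 1 of these transcription factors, which activate genes of lipid synthesis, and Insig1 is itself a known target of this family.

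The tissue was whole testes explanted from Sprague-Dawley rat fetuses of a gestational age shortly after the testis forms and kept on filters for 72 h in medium M199 with vehicle (DMSO) or with mono-(2-ethylhexyl) phthalate (MEHP), the active metabolite of the plasticizer di-(2-ethylhexyl) phthalate. There was 1 testis at 1 µM MEHP and there were 3 testes at 10 µM, each testis hybridized on 2 two-colour Agilent Whole Rat Genome arrays against the same reference, RNA pooled from 3 vehicle-treated testes. According to the methods the treated testes came from different litters, as did the testes of the pool. All arrays share the amplification of a small amount of RNA, and the pool counts as 1 control sample, so the spread between control testes does not enter any test. All ratios are given as log2 of MEHP over the vehicle pool, so that 1 is a doubling. The labels place MEHP on the green dye, Cy3, on every array, whereas per the methods each pair of arrays had its dyes swapped. MEHP was therefore taken as green in the first hybridization of each testis and red, Cy5, in the one labelled as its technical repeat. Across probes bright enough in both channels of both arrays, the red over green ratios of the 2 hybridizations correlated negatively, at a Pearson r between −0.824 and −0.517. The value of testis 2 rests on 63 such probes. Across probes bright in at least 1 channel of both arrays, the 3 pairs at 10 µM gave r from −0.513 to −0.281, whereas the pair at 1 µM gave 0.156. Probes are not independent replicates. This direction, taken from the labels and methods together, is likely but not settled, and if the order within the pairs were the other way round every sign given here would turn.

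On the 6 arrays other than those of testis 2 at 10 µM, MEHP signals rose clearly over the background at 7.8% to 29.8% of spots, and vehicle signals did at 9.23% to 31.9% of spots on the 8 arrays. For testis 2 only 0.249% and 1.54% of spots had such an MEHP signal. Over all tested probes the median ratio of testes 1, 2 and 3 was 0.09, −1.14 and −0.20, and that of the testis at 1 µM was 0.02. Ratios of testis 2 rest on an MEHP signal at the background for all 9 member probes tested at 10 µM, and means without this testis are given beside those of all 3. In the vehicle channel, 6 of 6 genes listed as Sertoli cell markers and 4 of 7 listed as Leydig cell markers were well above background on at least 4 of the 8 arrays. The same held for 2 of 5 macrophage markers, 1 of 3 peritubular markers, 1 of 3 endothelial markers, 0 of 3 germ cell markers and 0 of 2 red cell markers. In whole explants, fewer cells of a type and less RNA per cell cannot be told apart.

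Promoters were looked up for the members, from 250 bases before to 50 bases after the start of the gene in the RefSeq promoter table of build GRCr8. Windows of 7 of the 9 genes were searched, 11 windows in all, and Scarb1 and Npc1 are named only. The search passed over 1 chromosome, so this count does not show that a gene has no promoter entry. The strings searched on both strands were the sterol regulatory element TCACCCCAC, the Sp1 box GGGCGG, the CCAAT box CCAAT and the E-box CACGTG, none of which overlapped another in the windows shown. Capitals mark a match on either strand. The 3 windows are shown because Insig1 and Apoe were higher at 1 µM and Lrpap1 had the lowest mean ratio at 10 µM. They lie at chr4:8057720-8058019 (minus strand), chr1:88484650-88484949 (minus strand, 1 of 3 starts of the gene) and chr14:79875752-79876051 (plus strand).
Insig1: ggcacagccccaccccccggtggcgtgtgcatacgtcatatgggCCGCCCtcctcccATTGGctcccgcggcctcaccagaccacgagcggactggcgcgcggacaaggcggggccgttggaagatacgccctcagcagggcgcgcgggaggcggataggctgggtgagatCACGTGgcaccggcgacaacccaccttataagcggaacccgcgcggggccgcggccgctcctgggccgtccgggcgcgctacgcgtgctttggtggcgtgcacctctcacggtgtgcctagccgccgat
Apoe: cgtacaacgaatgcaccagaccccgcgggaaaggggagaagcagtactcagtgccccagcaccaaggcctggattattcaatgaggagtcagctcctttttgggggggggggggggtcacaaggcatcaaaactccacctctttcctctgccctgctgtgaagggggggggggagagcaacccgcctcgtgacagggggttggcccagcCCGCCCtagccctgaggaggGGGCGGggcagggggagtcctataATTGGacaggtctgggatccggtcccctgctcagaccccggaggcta
Lrpap1: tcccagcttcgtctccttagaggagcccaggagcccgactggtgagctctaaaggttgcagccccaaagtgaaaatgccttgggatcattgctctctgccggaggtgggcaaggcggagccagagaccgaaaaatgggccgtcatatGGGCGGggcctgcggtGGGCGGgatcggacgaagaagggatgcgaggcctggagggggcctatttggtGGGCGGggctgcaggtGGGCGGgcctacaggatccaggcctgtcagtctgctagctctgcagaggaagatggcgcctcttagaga
The sterol regulatory element was found in none of the 11 windows, and 0.484% of all 33469 promoters held it. The Insig1 window held 1 Sp1 box, 1 CCAAT box and 1 E-box, the Apoe window 2 Sp1 boxes and 1 CCAAT box, and the Lrpap1 window 4 Sp1 boxes. Of all promoters, 33.1% held the Sp1 box, 37.5% the CCAAT box and 6.42% the E-box. A match is a string of letters and not a measured site, and the absence of these letters from a window says nothing of the factor.

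At 10 µM none of the 9 member probes tested, of 7 genes, passed an adjusted p of 0.05 in limma (2.22% of the 9996 tested probes did, 37 higher and 185 lower). The methods set a p of 0.01 on an error model of the array software, a different measure from the limma p used here. Without adjustment, at a limma p of 0.01, 1 of the 9 passed, that of Lrpap1, and the share of all tested probes was 7.6%. At an unadjusted p of 0.05 the count was also 1, against 17.7% of all tested probes. The median of the 9 means was −0.48 and that of all tested probes −0.42. At 1 µM, where a single testis allowed no test, a probe was called when both hybridizations reached 1.5-fold in the same direction. There 4 of 11 member probes were called higher, of the 3 genes Scarb1, Apoe and Insig1, and 4.05% of the 13174 probes measured at this dose were. None of the members was called lower, against 2.96% of all probes. The median ratio of the 11 was 0.23, and that of all probes 0.02. The study had chosen Scarb1, Apoe and Lrpap1 for mention from these same samples, so their values are not independent evidence.

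**Figure D1:**
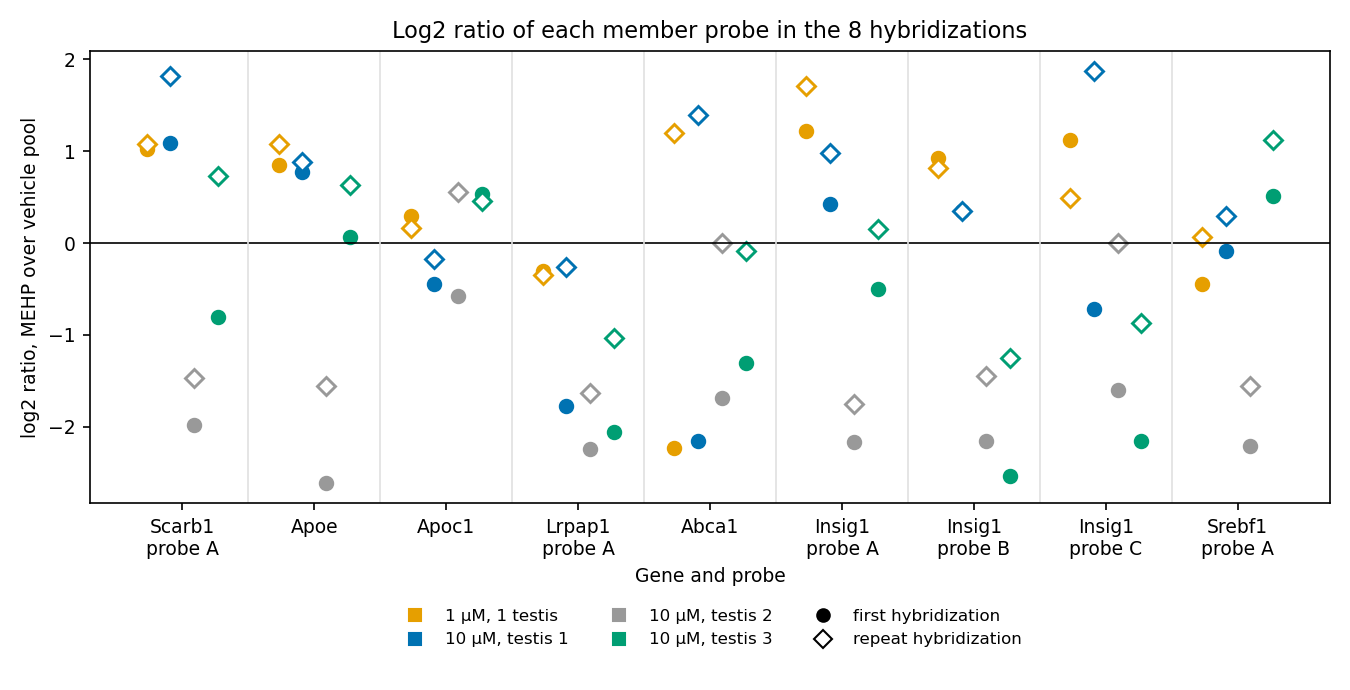
Log2 ratio of MEHP over the vehicle pool (vertical axis) for the 9 member probes tested at 10 µM (horizontal axis), with 1 point for each of the 8 hybridizations. Colours mark the testis, filled circles the first and open diamonds the repeat hybridization. Scarb1, Apoe and Insig1 lie above 0 in the testis at 1 µM and in testis 1 at 10 µM, apart from a first hybridization of −0.72 for Insig1 probe C, and below 0 in testis 2 apart from a repeat of 0 for the same probe, while Lrpap1 lies below 0 throughout.

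Scarb1 encodes SR-B1, the receptor that brings cholesteryl esters of high-density lipoprotein into steroid-producing cells. Its probe A had a processed signal of 1430 with MEHP and 707 with vehicle in the first hybridization at 1 µM, and of 1300 and 614 in the repeat. Both hybridizations were about 2-fold above the pool, with ratios of 1.02 and 1.08. All 4 signals were well above background, as marked in the plot of processed signals. With loess normalization the mean of this testis was 0.25 after normexp background correction and 0.52 without any, and Scarb1 was no longer called.

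At 10 µM the ratio of Scarb1 probe A was 1.09 and 1.82 in the 2 hybridizations of testis 1. It was −1.98 and −1.47 in testis 2, and −0.80 and 0.73 in testis 3. The testes thus overlapped 0, testis 1 lying above it in both hybridizations, testis 2 below it and testis 3 on either side. The mean was −0.10 ± 1.59 (SD, n = 3; limma, adjusted p = 0.957), with a 95% interval of −1.23 to 1.02. Without testis 2 it was 0.71, centring every array on its median gave 0.35, and neither passed the adjusted threshold. Probe B of the gene did not rise over the background with either dye on any of the 8 arrays, so 1 of the 2 probes gave a measured value.

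The Leydig cell markers moved both ways beside Scarb1 at 1 µM. In the testis at 1 µM, 2 of the 5 marker genes measured were called higher, Star and Cyp11a1, and 2 lower, Cyp17a1 and Insl3. Their summed signal there was 4530 and 3300 with MEHP against 4680 and 2960 with vehicle. At 10 µM it ranged from 886 to 2770 with MEHP and from 1620 to 8430 with vehicle. The sum was lower with MEHP than with vehicle on all 6 arrays, also on those of testis 1, where it was 2110 against 3140 and 1870 against 2720, and 1 of the 4 markers tested, Cyp17a1, was called lower. The markers Lhcgr and Nr5a1 were below background on every array. The part of these cells in the ratio of Scarb1 was not tested.

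**Figure D2:**
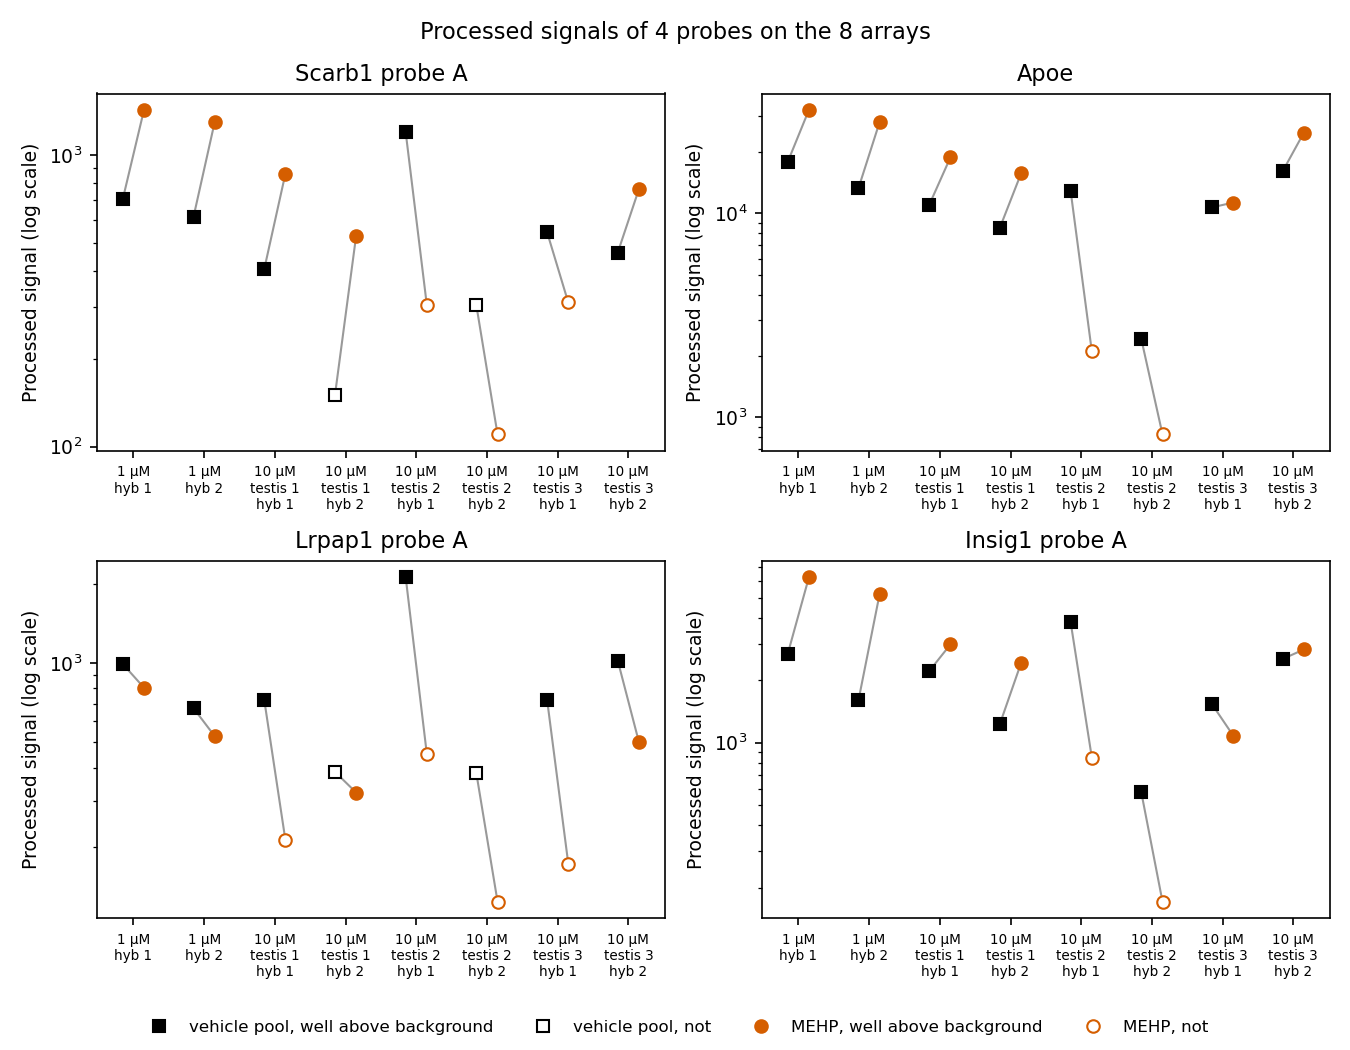
Processed signal after background subtraction and dye normalization (vertical axis, log scale, arbitrary units) of Scarb1 probe A, Apoe, Lrpap1 probe A and Insig1 probe A on the 8 arrays (horizontal axis). Black squares are the vehicle pool, orange circles MEHP, and open symbols signals not well above background. The MEHP signals of testis 2 are open in all 4 panels, and Apoe reaches 32200 at 1 µM against 2110 and 825 in testis 2.

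Apoe encodes apolipoprotein E, the ligand through which remnant lipoproteins are bound by their receptors at the cell surface. At 1 µM its signal was 32200 with MEHP and 17900 with vehicle in the first hybridization, and 28100 and 13300 in the repeat. The ratios of 0.85 and 1.08 amount to 1.81-fold and 2.12-fold higher signals in the treated testis. The call was also made with loess normalization, at a mean of 0.92 after normexp background correction and 0.78 without any. The vehicle signal was well above background on all 8 arrays, and the MEHP signal on the 6 arrays other than those of testis 2.

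At 10 µM, Apoe had ratios of 0.77 and 0.88 in testis 1. They were −2.61 and −1.55 in testis 2, and 0.07 and 0.63 in testis 3. In the vehicle channel the signal was 12900 and 2420 on the arrays of testis 2 and lay between 8510 and 16100 on those of testes 1 and 3. Testes 1 and 3 thus lay above 0 in all 4 hybridizations and testis 2 below it in both. The mean was −0.30 ± 1.56 (SD, n = 3; limma, adjusted p = 0.838), with a 95% interval of −1.42 to 0.82. It was 0.59 without testis 2 (adjusted p = 0.25) and 0.15 with centred arrays (adjusted p = 0.849).

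Macrophages also make apolipoprotein E. The summed signal of the macrophage markers was 1680 and 1700 with MEHP and 2100 and 1490 with vehicle at 1 µM, and no marker was called in either direction. At 10 µM it ranged from 592 to 2010 with MEHP and from 667 to 4770 with vehicle. The sum was lower with MEHP than with vehicle on all 6 arrays, those of testes 1 and 3 included, and 0 of 4 tested markers were called. In the vehicle channel Aif1 passed the scanner's background criterion on 7 of 8 arrays, Lyz on 4, Cd68 and Cd14 on 3 each and Csf1r on none. The mean ratio at 10 µM was −0.99 for Aif1, −1.25 for Lyz, −0.50 for Cd14 and 0.20 for Cd68. Their part in the ratio of Apoe was not tested.

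Apoc1, which lies next to Apoe and encodes a small apolipoprotein that hinders the receptor uptake of remnants, stayed close to the pool. Its ratio was 0.29 and 0.17 at 1 µM. At 10 µM it was −0.44 and −0.17 in testis 1, −0.58 and 0.56 in testis 2, and 0.53 and 0.46 in testis 3. The mean of 0.06 ± 0.40 (SD, n = 3; limma, adjusted p = 0.975) had a 95% interval of −1.04 to 1.16, so changes of up to about 2-fold either way lie within the error. Without testis 2 the mean was 0.09 and with centred arrays 0.51.

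Lrpap1 encodes the receptor-associated protein, a chaperone that keeps ligands off lipoprotein receptors on their way to the cell surface. Its probe A was the only tested member with all 6 hybridizations at 10 µM below 0. The ratio was −1.77 and −0.26 in testis 1, −2.24 and −1.63 in testis 2, and −2.06 and −1.03 in testis 3. In testis 3 the signal was 173 with MEHP and 726 with vehicle in the first hybridization, and 500 and 1020 in the repeat. The testis means of −1.02, −1.93 and −1.55 did not reach 0. All 3 testis means were below 0 for 2 of the 9 tested member probes, those of Lrpap1 and Abca1, and for 36.4% of all tested probes. The share of all probes with all 6 hybridizations below 0 is not given here.

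The mean of Lrpap1 was −1.50 ± 0.46 (SD, n = 3), a 2.83-fold lower signal with a 95% interval of −2.60 to −0.40, and it missed the adjusted threshold (limma, adjusted p = 0.118). Without testis 2, whose MEHP signals for this probe were background substitutes, it was −1.28 and passed (limma, adjusted p = 0.0299), as 16.9% of tested probes did in that fit. Its adjusted p was 0.314 without testis 1 and 0.849 without testis 3. With centred arrays it was −1.05 ± 0.27, the testes lying at −1.12, −0.74 and −1.27 (limma, adjusted p = 0.105). With loess normalization it was much smaller, at −0.25 after normexp background correction and −0.23 without any, and with MEHP on Cy3 throughout, as labelled, it was −0.53. Of the 6 arrays, 2 had an MEHP signal well above background and 4 such a vehicle signal, so the size of the difference is limited by the background. At 1 µM the ratio was −0.30 and −0.35, with both channels well above background on both arrays, and it did not reach 1.5-fold. The other Lrpap1 probe, B, was at a background substitute in both channels of all 8 arrays.

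Abca1, which encodes the transporter that passes cholesterol to apolipoprotein A-I, changed sign with the dye. Its ratio was −2.23 in the first hybridization at 1 µM and 1.20 in the repeat. In testis 1 at 10 µM it was −2.15 and 1.39, in testis 2 −1.69 and 0, and in testis 3 −1.31 and −0.09. At 1 µM and in testis 1 the red channel was thus the brighter one on both arrays, whether it held MEHP or vehicle. The dimmer channel was at a background substitute on all 4 of these arrays. The mean at 10 µM was −0.64 ± 0.24 (SD, n = 3; limma, adjusted p = 0.573), from a first hybridization mean of −1.72 and a repeat mean of 0.43. It was −0.54 without testis 2, and it shrank to −0.19 with centred arrays, −0.17 with normexp background correction and loess and −0.08 with loess alone. No direction can be read from these values, although the 3 testis means were below 0.

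The same dye pattern was found in 2 dimmer member probes at 1 µM, Insig1 probe D with −1.68 and 1.85 and Srebf1 probe B with −0.86 and 0.77. Among all 13174 probes measured at 1 µM, 2541 reached 1.5-fold in opposite directions in the 2 hybridizations. Over the 9 member probes at 10 µM, the repeat ratio was the higher one in 25 of 27 pairs. This was also the case for 67.2% of all tested probes in testis 1, 85.9% in testis 2 and 70.2% in testis 3.

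**Figure D3:**
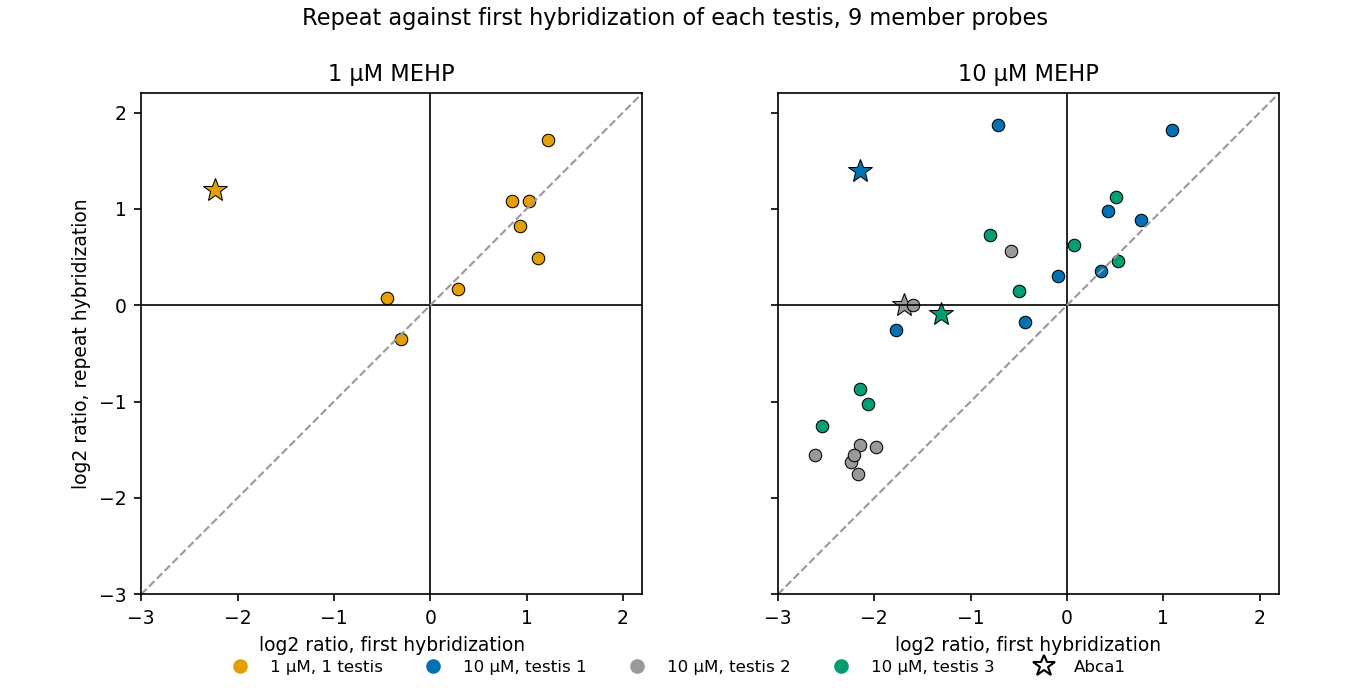
Log2 ratio in the repeat hybridization (vertical axis) against that in the first (horizontal axis) for the 9 member probes tested at 10 µM, on the left in the testis at 1 µM and on the right in the 3 testes at 10 µM. Points on the dashed line have the same ratio in both hybridizations. Stars mark Abca1, which lies far above the line at −2.23 and 1.20 at 1 µM, and 25 of the 27 points at 10 µM lie above it.

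Insig1 encodes the endoplasmic reticulum protein that retains the complex of sterol regulatory element-binding proteins and their escort. Its promoter is the first of those printed above. Probe A had signals of 6280 with MEHP and 2680 with vehicle in the first hybridization at 1 µM, and of 5220 and 1600 in the repeat. The ratios of 1.22 and 1.71 were the highest of any member called at this dose. Probe B gave 0.93 and 0.82 and was called higher as well. Probe C gave 1.12 and 0.49, the second being below the 1.5-fold limit. Of the 4 probes of this gene, 3 were thus above the pool in both hybridizations at 1 µM. After normexp background correction and loess the means of probes A and B were 0.51 and 0.26 and neither was called, and without background correction they were 1.06 and 0.46 and probe A was. With centred arrays probe B, at 0.82, was not called.

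At 10 µM, Insig1 probe A had ratios of 0.43 and 0.98 in testis 1, −2.17 and −1.75 in testis 2 and −0.50 and 0.15 in testis 3. Probe B had 0.35 and 0.35 in testis 1, −2.15 and −1.45 in testis 2 and −2.54 and −1.25 in testis 3. The probes differed most in testis 3, where probe A averaged −0.17, probe B −1.90 and probe C −1.51. In testis 1 all 3 averaged above 0, at 0.71, 0.35 and 0.58. For probe C that average came from −0.72 and 1.87, the red channel being the brighter one on both arrays. The vehicle signal of probe C was well above background on neither of these arrays, and in the repeat it was a background substitute. No direction can be read from probe C in testis 1. In testis 3 the MEHP signal of probe A rose well over the background in both hybridizations, that of probe B in the repeat and that of probe C in neither. The means were −0.48 ± 1.36 for probe A, −1.11 ± 1.27 for probe B and −0.58 ± 1.06 for probe C (SD, n = 3). None passed the adjusted threshold, with adjusted p values of 0.709, 0.283 and 0.626 in limma. The mean of probe A was 0.27 without testis 2, while those of probes B and C remained below 0, at −0.77 and −0.47. With loess normalization the means of probes B and C shrank to −0.07 and −0.09 after normexp background correction and to −0.08 and −0.03 without any.

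Insig2, the second gene of the family, was not measurable. Neither of its probes rose over the background in a channel of the 8 arrays, and in 10 of their 16 readings both signals were background substitutes, for which Feature Extraction gives a ratio of 0.

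Srebf1 encodes sterol regulatory element-binding protein 1, an activator of fatty acid synthesis genes. Its probe A gave −0.45 and 0.07 at 1 µM. At 10 µM it gave −0.09 and 0.30 in testis 1, −2.21 and −1.55 in testis 2, and 0.51 and 1.12 in testis 3. Testis 3 was the highest of the 3, as for Apoc1 and unlike for Scarb1, Apoe and Insig1 probe A, for which testis 1 was. The mean was −0.32 ± 1.39 (SD, n = 3; limma, adjusted p = 0.824), and it was 0.46 without testis 2 and 0.14 with centred arrays. Probe B was well above background in 1 channel of 1 of the 6 arrays at 10 µM, and probe C on none of the 8.

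Across the 9 probes, 7 had testes on both sides of 0 at 10 µM, where 59.8% of all tested probes did. Testis 2 was the lowest of the 3 for 6 of the 9. The SD between testes was at least 1 for 6 of the 9 and for 35.1% of all tested probes. The median over the 9 was 0.35, −1.80 and −0.17 in testes 1, 2 and 3.

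**Figure D4:**
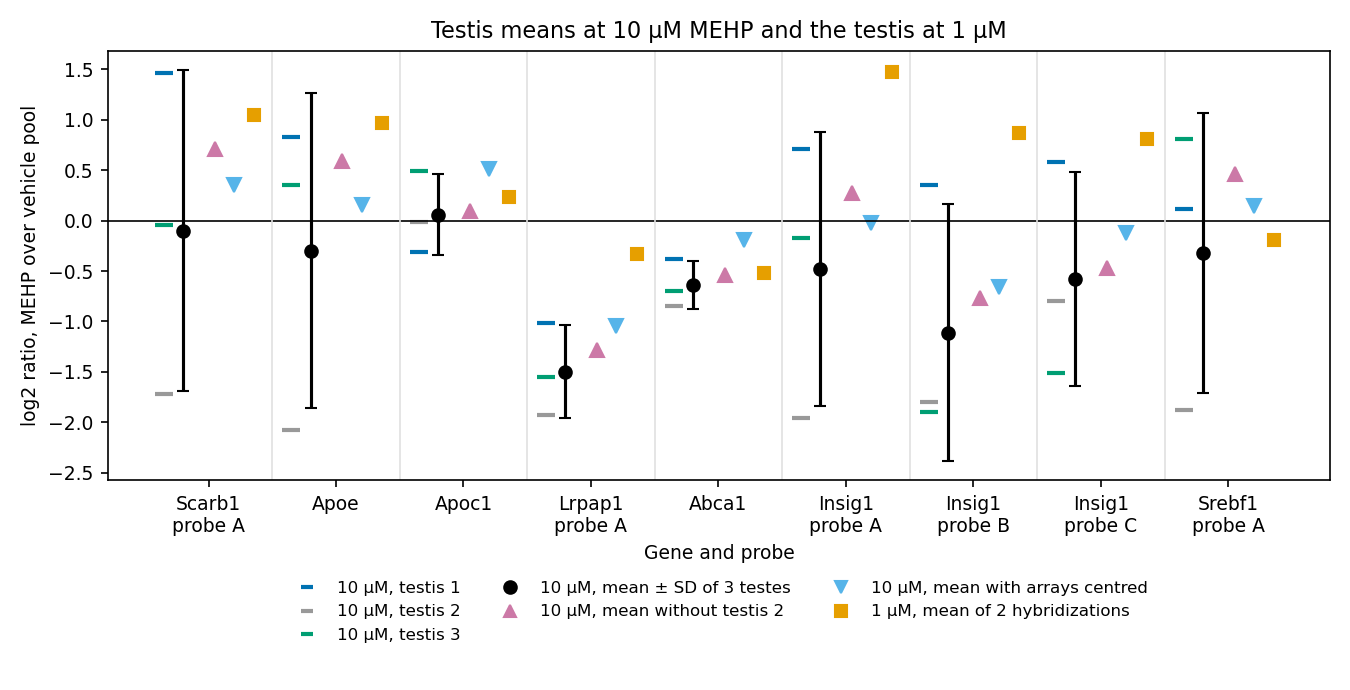
Log2 ratio of MEHP over the vehicle pool (vertical axis) for the 9 member probes (horizontal axis). Dashes are the 3 testes at 10 µM, black circles with bars their mean ± SD, triangles pointing up the mean without testis 2, triangles pointing down the mean with centred arrays, and squares the mean of the 2 hybridizations at 1 µM. Scarb1, Apoe and Srebf1 move from below to above 0 in both alternatives, and Lrpap1 remains below 0, at −1.28 and −1.05.

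All 9 probes had a lower ratio at 10 µM than at 1 µM, or 6 of them with centred arrays, when the differences of Apoc1, Abca1 and Srebf1 turned to 0.33, 0.38 and 0.38. The median difference over all tested probes was −0.52, so most of these also had a lower ratio at 10 µM. The difference, 10 µM minus 1 µM, was −1.15 ± 1.14 (SE) for Scarb1, −1.27 ± 1.13 for Apoe, −1.17 ± 1.11 for Lrpap1 and −1.94 ± 1.13 for Insig1 probe A. It was −1.99 ± 1.13 for Insig1 probe B and −1.39 ± 1.12 for probe C, and between −0.17 and −0.13 for Apoc1, Abca1 and Srebf1. Without testis 2 the difference was −0.34 for Scarb1, −0.38 for Apoe, −0.96 for Lrpap1 and −1.20, −1.65 and −1.27 for Insig1 probes A, B and C, and with centred arrays it was −0.65, −0.76, −0.67, −1.44, −1.48 and −0.88 for the same probes. Without testis 2 it was −0.14 for Apoc1, −0.02 for Abca1 and 0.65 for Srebf1. The limma fit, in which the single testis at 1 µM is given the spread of the others, called none of the 9 after adjustment and 0% of the 9994 probes tested. At an unadjusted p of 0.05 none of the members passed, and 24 of all probes did (0.24%). Testis 3 shared a slide with the testis at 1 µM. Within that slide the difference was −1.09 for Scarb1, −0.62 for Apoe, −1.22 for Lrpap1 and −0.19 for Abca1. For Insig1 it was −1.64 with probe A, −2.77 with probe B and −2.32 with probe C. The sign turned within the slide for Apoc1, to 0.26, and for Srebf1, to 1.00.

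Other genes of these pathways were taken from a list of 65, of which 53 had a probe and 19 were tested at 10 µM. After adjustment limma called none of the 19 in either direction, against 2.22% of all tested probes. The median of the 19 was −0.43. At 1 µM, 24 were measured, 4 were called higher and none lower, with a median of 0.17. Of all 13174 probes measured at this dose, 4.05% were called higher and 2.96% lower. The 4 list genes called were Star, which moves cholesterol into mitochondria, and 3 targets of the sterol regulatory element-binding proteins. These were Hmgcs1 of cholesterol synthesis with ratios of 0.97 and 0.75, Idi1 of the same pathway with 1.47 and 1.54, and the fatty acid desaturase gene Scd1 with 1.41 and 1.71. For Scd1, 1 of the 2 arrays had an MEHP signal well above background and none of the 8 a vehicle signal so bright. The targets Sqle, Fdft1, Fasn and Acaca were measured and not called at 1 µM. Star and Hmgcs1 had also been chosen by the study for mention from these same samples. Their values are therefore not independent evidence. Among the 3 receptor genes, the 4 export genes and the 2 sterol-sensing genes of the list measured at 1 µM, none was called.

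The probes whose 8 ratios lay closest to those of a member were found by the root mean square difference over the 8 hybridizations, among 5033 tested probes with a gene symbol. For Scarb1 these were Gas6, Madh7 and Strn3, at 0.41, 0.45 and 0.46 log2 units. For Apoe the nearest were Hspa5 and Unc45a, at 0.24 and 0.25. For Lrpap1 they were Bxdc5, Ankrd46 and Pctk2, at 0.18, 0.26 and 0.26. All ratios share the vehicle pool and the array, so part of this likeness is common to every probe.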

How the data were processed

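RNA of 4 treated rat fetal testes was compared with 1 vehicle pool on 8 Agilent arrays. Per the labels and file headers, the authors ran Agilent Feature Extraction 9.1 on the scans and deposited, for each spot, the log10 ratio of red over green and its error, background-subtracted and dye-normalized intensity values, and flags for outliers, substitutes and spots well above background. The gene model or genome build of the probes is not given in the sources used here. A list for each dose, with the authors' fold changes and p-values, was not used.

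Ratios were converted to log2, turned to MEHP over vehicle and averaged over the spots of a probe, without control and outlier spots, and over the 2 hybridizations of a testis. A probe was kept when a channel rose well above background on 3 or more of the 6 arrays (10 µM) or on 1 or more of the 2 (1 µM). For the 3 testes, limma 3.58.1 (lmFit, eBayes; R 4.3.3) gave two-sided tests of the mean against 0, adjusted by Benjamini-Hochberg over every kept probe. The fit was tested on simulated data. The difference between doses was fitted over 4 testes. Named genes were all member probes, list genes past a threshold, and the 3 nearest probes of 3 members, and a few of these are not reported here. Members, pathway list and markers were chosen with earlier results of these data known. Names were those of the array, and 11 of 16 member probes matched a GRCr8 gene table by accession. Python 3.11.15 with matplotlib 3.10.9 drew the figures. Alternatives changed the background correction, loess, centring, dim and outlier filters, dye direction, hybridizations, testes, control spread, variance trend, blocks, weights and fold limit. The number of arrays limits the precision.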

Additional observations from a re-analysis of the deposited data

How the results depend on the processing

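At 10 µM, 222 probes passed the adjusted threshold in limma and none was a member. The count over all probes was 0 with normexp correction and loess (1655 at an unadjusted p of 0.05), with loess alone (1589), without the filter on dim probes (2442), with both channels above background on every array (12 of 51 probes), for the first hybridization alone (2914), with MEHP on Cy3 throughout as labelled (3216), with a spread for the control pool (57), with the testis as a random block over 6 arrays (1690) and with the slide as a block (943). It was 121 with centred arrays (58 higher and 63 lower, against 37 and 185), 90 with an intensity trend, 5701 with error weights, and 13 when arrays with a dim probe were dropped, an alternative chosen after seeing the data. Left out in turn, the testes gave 0 to 1689 calls: 0 without testis 1 (1379 at an unadjusted p of 0.05), 1689 without testis 2 and 0 without testis 3 (498). Member calls ran from 0 to 1, Lrpap1 being called without testis 2, and were 5 (Scarb1, Lrpap1, Abca1, Insig1 probe B and Srebf1) with error weights, which take no error from the spread between testes. No member could be tested with both channels above background on every array.

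At 10 µM the mean of Scarb1 was −0.10 and turned to 0.06 with normexp, 0.08 with loess alone, 0.35 with centred arrays, 0.36 for the repeat alone, 0.71 without testis 2 and 0.57 with error weights. For Apoe (−0.30) these were 0.32, 0.31 and 0.15, then 0.59 without testis 2 and 0.25 with error weights. For Srebf1 (−0.32) they were 0.05, 0.10 and 0.14, then 0.46 and 0.35. Insig1 probe A (−0.48) turned to 0.01 with normexp, 0.06 with loess alone, 0.27 without testis 2 and 0.21 with error weights. Apoc1 (0.06) turned to −0.17 for the first hybridization alone, −0.22 with MEHP on Cy3 throughout, −0.16 without testis 3 and −0.13 without dim arrays. For the repeat alone, Abca1 turned to 0.43 and Insig1 probe C to 0.34. With the testes left out in turn, the means ran from −0.88 to 0.71 for Scarb1, −0.87 to 0.59 for Apoe, −0.88 to 0.46 for Srebf1, −1.07 to 0.27 for Insig1 probe A, −0.16 to 0.24 for Apoc1, −1.85 to −0.72 for Insig1 probe B and −1.16 to −0.11 for probe C, the value nearest 0 of both being that without testis 3. Lrpap1 (−1.50) and Insig1 probe B (−1.11) stayed below 0 in the alternatives in which they were tested, but shrank to −0.25 and −0.07 with normexp, −0.23 and −0.08 with loess alone, and −0.53 and −0.33 with MEHP on Cy3 throughout.

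At 1 µM, 924 probes and 4 members were called in the 2 directions together. These counts were 66 and 1 with normexp, 104 and 2 with loess alone, 5287 and 8 for the first hybridization, 6275 and 7 for the repeat, and 226 and 2 at a 2-fold limit. All calls were 307 with both channels above background and 2541 with MEHP on Cy3 throughout, when Scarb1 turned to −0.03, Apoe to −0.12 and Insig1 probe A to −0.24. The difference between doses had 0 adjusted calls in each of its 5 alternatives, with 7 to 545 probes at an unadjusted p of 0.05. It turned for Apoc1 to 0.33 centred, 0.01 without testis 1 and 0.26 with a slide block, for Abca1 to 0.38 centred, and for Srebf1 to 0.38 centred, 0.65 without testis 2 and 1.00 with a slide block, the slide block being chosen after seeing the data. With the testes left out in turn it ran from −0.39 to 0.01 for Apoc1, from −0.69 to 0.65 for Srebf1, from −1.93 to −0.34 for Scarb1 and −1.83 to −0.38 for Apoe, the smallest difference of both being that without testis 2. The cause of these changes was not tested. Signal over background limits every ratio of testis 2 and the dim probes.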
